A study of Mus musculus with 2 samples.

Results

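DNA methylation was mapped at 6 collagen genes, Col1a1, Col3a1, Col4a1, Col4a2, Col5a1 and Col6a3, in the epididymal fat of mice on 2 diets. Collagens are the main structural proteins of the extracellular matrix. Each molecule is a triple helix of chains built from glycine-rich repeats. Types I, III and V form fibrils, type IV forms the sheet of the basement membrane that surrounds every adipocyte, and type VI, which is neither, forms beaded microfibrils and is prominent in fat tissue. In adipose tissue the fibrillar chains are made largely by fibroblast-like stromal and progenitor cells, and obesity is known for remodelling of this matrix. Methylation of cytosines in CpG pairs is common within transcribed gene bodies, whereas CpG-rich promoters usually lack it.

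The assay was MeDIP-seq, which sequences the DNA fragments that an antibody to 5-methylcytosine pulls down and calls stretches enriched in reads as peaks. Male mice of the inbred strain C57BL/6J were 4 weeks old at the start and ate for 5 months either regular chow (STD) or high-fat food (HFD), in which fat gives 60% of the calories. They carried no engineered allele named in the labels. The tissue was epididymal white adipose tissue, a mixture of adipocytes, stromal, vascular and immune cells. Each diet is represented by 1 library, and the labels do not give the number of mice behind it. Differences between the diets are thus between 2 libraries, without replicates and without p-values. The intervals are exact 95% intervals that treat peaks as independent and cover counting error only. Sequencing depth is unknown, since the lists give peak positions and no counts.

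Members were all peaks that overlapped, by at least 1 bp, 5 windows of mm9 reaching about 10 kb beyond each gene. Col4a1 and Col4a2, which lie head to head, share 1 window. The windows held 79 of 166438 STD peaks and 85 of 175773 HFD peaks. The gene body was taken as the window less 10 kb at each end, so gene ends are known only to about 1 kb. Gene bodies totalled 542 kb and held 70 STD and 79 HFD peaks. As surroundings, 500 kb on each side of each window were used. They held 503 STD and 522 HFD peaks.

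The upstream DNA of these genes differs widely in CpG content. Whether that content is related to the peaks was not tested. RefSeq promoter sequences (GRCm38.p6, not the build of the peaks) were found for 5 of the 6 genes. The stretch from 250 to 51 bases before the annotated start was searched for the pair CG, which reads the same on both strands. The 2 fibrillar genes at the extremes are shown, 5′ to 3′ on the gene's strand, with each CG in capitals.
Col3a1: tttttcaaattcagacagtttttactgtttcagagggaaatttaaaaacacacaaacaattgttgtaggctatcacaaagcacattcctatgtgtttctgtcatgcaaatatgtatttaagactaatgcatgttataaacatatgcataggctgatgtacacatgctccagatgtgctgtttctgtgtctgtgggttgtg
Col5a1: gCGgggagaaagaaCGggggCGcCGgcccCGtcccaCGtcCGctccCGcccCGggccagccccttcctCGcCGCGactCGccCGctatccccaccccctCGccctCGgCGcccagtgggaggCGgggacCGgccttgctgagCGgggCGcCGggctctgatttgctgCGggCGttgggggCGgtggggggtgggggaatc

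Col3a1 had no CG in these 200 bases, as did 10.9% of the 32851 promoter entries in the table. Col5a1 had 25, and 4.83% of entries had as many or more. Col4a1 and Col4a2 had 23 and 21, reached by 6.48% and 8.39% of entries. Col6a3 had 2, below the median of 4.

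From the approximate 5′ end inward, Col1a1, Col3a1, Col5a1 and Col6a3 held no peak of either diet for at least 6.98 kb. The first peak inside the gene began 7.40 kb (STD) and 7.38 kb (HFD) from the approximate 5′ end of Col1a1. In Col3a1 it began 20.7 kb (STD) and 20.8 kb (HFD) from that end, and in Col5a1 7.59 kb (STD) and 6.98 kb (HFD). In Col6a3, which is transcribed toward lower coordinates, the first peak lay 16.1 kb (STD) and 10.8 kb (HFD) into the gene. Within 2 kb on either side of these 4 ends there was 1 peak, an HFD peak of 278 bp at Col6a3 (chromosome 1, 92741835 to 92742112). It lay 0.834 kb outside the approximate end, less than the 1 kb to which gene ends are known. The nearest STD peak was 17.0 kb away. This HFD peak was 23 bp wider than the narrowest of its list. Of all HFD peaks 21 to 50 bp wider than the narrowest, 59.8% overlapped an STD peak. Most stretches of that size are free of peaks: in the surroundings of these 4 genes, 64.7% of stretches of 4 kb had no STD peak and 63.7% no HFD peak. That share was not computed for stretches as long as the empty ones inside the genes. The shared 5′ region of Col4a1 and Col4a2 was not placed, because it falls at an unknown point inside their window.

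**Figure D1:**
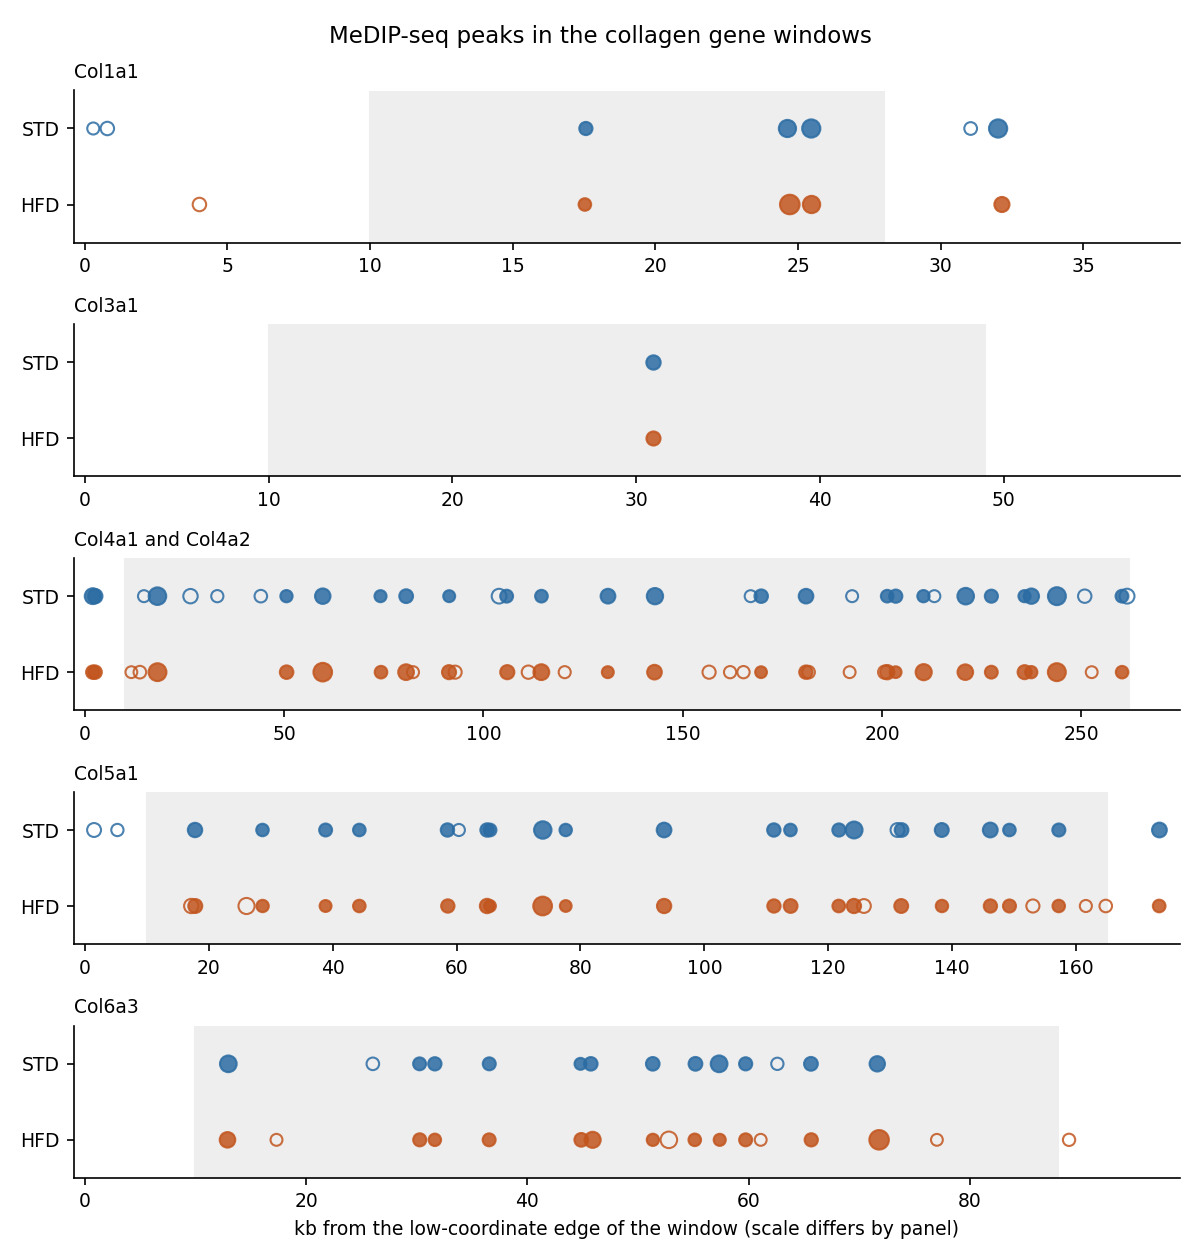
Position of every peak in the 5 windows, in kb from the low-coordinate edge of the window, with STD above and HFD below in each panel. Grey marks the gene body, the area of a circle grows with peak width, filled circles overlap a peak of the other diet and open circles do not; Col3a1 shows 1 peak per diet and the Col4a1 and Col4a2 window 33 STD and 36 HFD peaks.

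The fibrillar genes were described first. Col1a1, which encodes the main chain of type I collagen, carried the same 3 gene-body peaks with both diets (chromosome 11, body 94797 to 94815 kb). The first was 321 bp wide with STD (94804403 to 94804723) and 291 bp with HFD (94804383 to 94804673). The other two lay toward the 3′ end and were broad. One measured 546 bp with STD (94811356 to 94811901) and 705 bp with HFD (94811359 to 94812063). The last measured 611 bp with STD (94812158 to 94812768) and 552 bp with HFD (94812198 to 94812749). All 3 pairs thus overlapped, and neither diet had the wider peak throughout. Within this window, peaks found with only 1 diet lay in the flanks. These face Gm11544 on the low side and Sgca, which encodes a muscle membrane protein, on the high side. STD had 4 flank peaks and HFD 2, and 1 pair of these overlapped, of 613 bp (STD) and 421 bp (HFD). The other 3 STD peaks and 1 HFD peak overlapped none of the other diet, beside 26.5% and 30.3% over all nuclear chromosomes. Shares of overlapping flank peaks were 25% (0.631 to 80.6) with STD and 50% (1.26 to 98.7) with HFD. Both intervals include the whole-list shares.

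Col3a1, which encodes the single chain of type III collagen, had 1 peak per diet in its whole window of 59 kb (chromosome 1). The STD peak (45388730 to 45389108) was 379 bp wide and the HFD peak (45388755 to 45389119) 365 bp, with 354 bp in common. The stretch of 20.7 kb between the 5′ end and this peak, 53.2% of the gene body, was empty with both diets. The neighbourhood was sparse as well. The 1 Mb around Col3a1, which includes its neighbour Col5a2, a type V collagen gene, held 28 STD and 34 HFD peaks, against 114 to 125 and 113 to 138 around the other 4 windows.

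Col5a1 encodes a chain of type V collagen, a minor component that nucleates fibrils. Its body of 155 kb (chromosome 2, 27741 to 27896 kb) held 21 STD and 25 HFD peaks. The broadest peak of both diets was at the same place, 561 bp with STD (27804644 to 27805204) and 648 bp with HFD (27804575 to 27805222). The next 2 STD peaks by width, of 528 bp (27854915 to 27855442) and 404 bp (27876962 to 27877365), overlapped HFD peaks of 375 and 325 bp. The next HFD peak by width, of 477 bp (27756860 to 27757336), had no STD partner, that is, no STD peak overlapped it, and the nearest STD peak was 2.20 kb away. The HFD peak after it, of 380 bp (27795735 to 27796114), overlapped an STD peak of 332 bp. The broadest STD peak without a partner was 354 bp wide (27862008 to 27862361), with an HFD peak 0.248 kb away. In 3 equal segments from the 5′ end there were 6, 6 and 9 STD peaks, and 7, 6 and 12 HFD peaks. Both lists thus had their highest number in the 3′ segment. In the flanks, STD had 2 peaks outside the 5′ end without a partner, at 27732308 to 27732664 and 27736115 to 27736391. HFD had none on that side. The second was 277 bp wide, where the narrowest STD peaks are 263 bp. Over all nuclear chromosomes 26.5% of STD peaks had no partner. Of the 3 STD flank peaks 33.3% (0.840 to 90.6) had one, an interval that includes the whole-list share.

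The basement membrane genes Col4a1 and Col4a2 encode the 2 chains that form the ubiquitous type IV network, and lie between Irs2, an insulin signalling adaptor gene, and Rab20. Their joint body of 252 kb (chromosome 8, 11198 to 11450 kb) held 31 STD and 34 HFD peaks. The 2 broadest STD peaks had HFD partners of like width: 594 bp (11431602 to 11432195) against 594 bp (11431586 to 11432179), and 570 bp (11205927 to 11206496) against 589 bp (11205935 to 11206523). The STD peak that followed, of 507 bp (11408759 to 11409265), overlapped an HFD peak of 446 bp. The broadest HFD peak, of 639 bp (11247369 to 11248007), overlapped an STD peak of 440 bp. Of 44 separate loci in this body, 21 were covered with both diets, 10 with STD only and 13 with HFD only. Those are 10 of 31 STD and 13 of 34 HFD peaks without an overlapping peak of the other diet, beside 26.5% and 30.3% over all nuclear chromosomes. With a partner were 67.7% (48.6 to 83.3) and 61.8% (43.6 to 77.8), intervals that include the whole-list shares. The broadest STD peak without a partner was 406 bp wide (11449296 to 11449701), with an HFD peak 0.899 kb away. The broadest such HFD peak was 326 bp wide (11299119 to 11299444), with an STD peak 2.97 kb away. The longest stretch of this body without any peak was 14.0 kb, or 5.57% of it.

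Col6a3 encodes the largest of the common type VI collagen chains, whose cleaved end is released from adipocytes as a signalling peptide. Its body of 78 kb (chromosome 1, 92663 to 92741 kb, between Cops8 and Mlph) held 14 STD and 16 HFD peaks. The broadest HFD peak, of 703 bp (92724451 to 92725153), overlapped an STD peak of 435 bp (92724419 to 92724853). In the opposite direction, the broadest STD peak, of 517 bp (92710078 to 92710594), overlapped an HFD peak of 269 bp (92710260 to 92710528). An STD peak of 513 bp (92665715 to 92666227) overlapped an HFD peak of 445 bp, and an HFD peak of 477 bp (92698667 to 92699143) an STD peak of 337 bp. The broadest HFD peak without a partner, of 504 bp (92705543 to 92706046), had an STD peak 1.03 kb away. The broadest such STD peak was 292 bp wide (92678889 to 92679180), with an HFD peak at 3.94 kb. In 3 equal segments from the 5′ end there were 3, 7 and 4 STD peaks, and 3, 9 and 4 HFD peaks. The middle segment held the highest number with both diets.

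Peak density in the gene bodies was then set against the surroundings. Col6a3 had 17.9 STD peaks per 100 kb (9.81 to 30.1) and 20.5 HFD peaks (11.7 to 33.3). Its surroundings had 11.7 and 11.3 peaks per 100 kb, which gave ratios of 1.53 (0.814 to 2.68) with STD and 1.82 (1.003 to 3.08) with HFD. Of all autosomal stretches of 78 kb, 5.02% held as many STD peaks as Col6a3 or more, and 2.50% as many HFD peaks or more. For stretches as long as the other gene bodies these shares were 14.4% and 7.93% for Col5a1, 18.2% and 15.6% for Col4a1 and Col4a2, 17.9% and 19.4% for Col1a1, and 77.8% and 78.9% for Col3a1. Col5a1 had 13.5 STD and 16.1 HFD peaks per 100 kb, with ratios to its surroundings of 1.19 (0.708 to 1.90) and 1.34 (0.837 to 2.08). For Col4a1 and Col4a2 the densities were 12.3 and 13.5 per 100 kb, and the ratios 1.03 (0.673 to 1.55) and 1.15 (0.763 to 1.70). The few peaks of the smaller genes left wide intervals. Col1a1 had ratios of 1.33 (0.271 to 3.99) and 1.21 (0.246 to 3.60), and Col3a1 0.916 (0.0224 to 5.54) and 0.754 (0.0186 to 4.50). Apart from Col6a3 with HFD, each of these 10 intervals included 1. Peak counts varied widely between autosomal stretches of equal length. With HFD, stretches of 78 kb had a median of 5 peaks (quartiles 2 and 9), and stretches of 252 kb a median of 16 (quartiles 7 and 28). The ratio intervals do not cover this variation and may be too narrow, so an interval that excludes 1 is weak evidence.

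**Figure D2:**
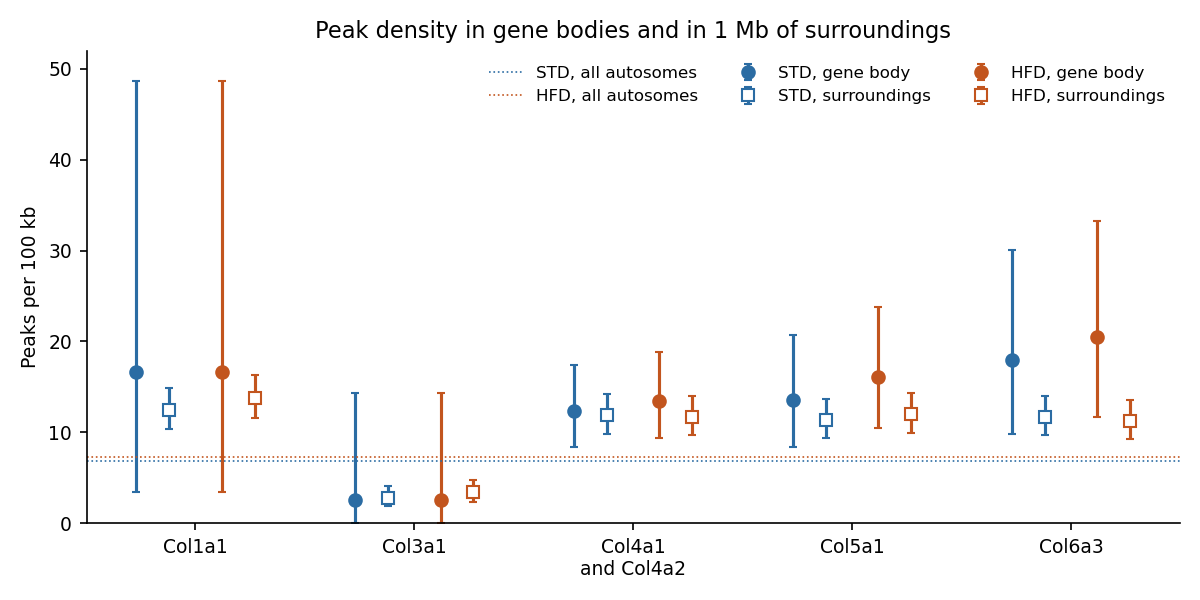
Peaks per 100 kb in the gene body (filled circles) and in the 1 Mb of surroundings (open squares) of each region, with exact 95% Poisson intervals, STD in blue and HFD in orange; dotted lines give the density over all autosomes. Except at Col3a1, bodies and surroundings lie above the autosomal densities of 6.85 (STD) and 7.24 (HFD), and the body and surroundings intervals overlap in every region.

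Over all 5 regions the bodies had 12.9 STD and 14.6 HFD peaks per 100 kb, against 10.1 and 10.4 in the surroundings. The ratios were 1.28 (0.985 to 1.65) with STD and 1.40 (1.09 to 1.77) with HFD, again with intervals for counting error only. This pooled ratio counts each region's surroundings equally, so the sparse surroundings of the short gene Col3a1 weigh in it. Without Col3a1 the ratios were 1.16 (0.884 to 1.49) and 1.27 (0.988 to 1.62). When the surroundings were weighted by the length of each gene body, 60.1 STD and 60.7 HFD peaks corresponded to the 70 and 79 found, ratios of 1.16 and 1.30. The surroundings of every gene but Col3a1 were themselves dense, with 11.4 to 12.5 STD and 11.3 to 13.8 HFD peaks per 100 kb against 6.85 and 7.24 over all autosomes. Peak density was not adjusted for CpG content or mappability, and CpG content was not measured on mm9.

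The diets were compared by the share of peaks with a partner, an overlapping peak of the other list. In the gene bodies 56 of 70 STD peaks had an HFD partner, or 80.0% (68.7 to 88.6), and 14 had none. With HFD, 56 of 79 had an STD partner, or 70.9% (59.6 to 80.6), and 23 had none. Over all nuclear chromosomes 26.5% of STD peaks and 30.3% of HFD peaks had no partner, so 73.5% and 69.7% had one, and both values lie within the gene-body intervals. In the surroundings 72.8% of STD peaks (68.6 to 76.6) and 70.3% of HFD peaks (66.2 to 74.2) had one. Over all 5 regions the partner shares were thus not distinguishable from those of the neighbourhood or the genome at this number of peaks, but for STD this rested on Col4a1 and Col4a2. That region had the lowest STD share of the 5, so leaving it out had to raise the pooled share. Without Col4a1 and Col4a2, 89.7% of STD peaks (75.8 to 97.1) had a partner, an interval above the whole-list 73.5%. The HFD share without them was 77.8% (62.9 to 88.8), an interval that includes 69.7%. With any other single region left out, the STD share was 75.5% to 79.7%, with intervals that include 73.5%. Whether the remaining genes differ from the genome was not tested.

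By gene, every gene-body peak of Col1a1 and Col3a1 had a partner, which are only 3 and 1 peaks per diet. In Col5a1, 19 of 21 STD peaks had one, or 90.5% (69.6 to 98.8), and 19 of 25 HFD peaks, or 76.0% (54.9 to 90.6). In Col6a3 it was 12 of 14 STD peaks (85.7%, 57.2 to 98.2) and 12 of 16 HFD peaks (75%, 47.6 to 92.7). Col4a1 and Col4a2 were lowest, with 21 of 31 STD peaks (67.7%, 48.6 to 83.3) and 21 of 34 HFD peaks (61.8%, 43.6 to 77.8). The intervals of Col4a1 and Col4a2 overlapped those of Col5a1 and Col6a3 with both diets.

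**Figure D3:**
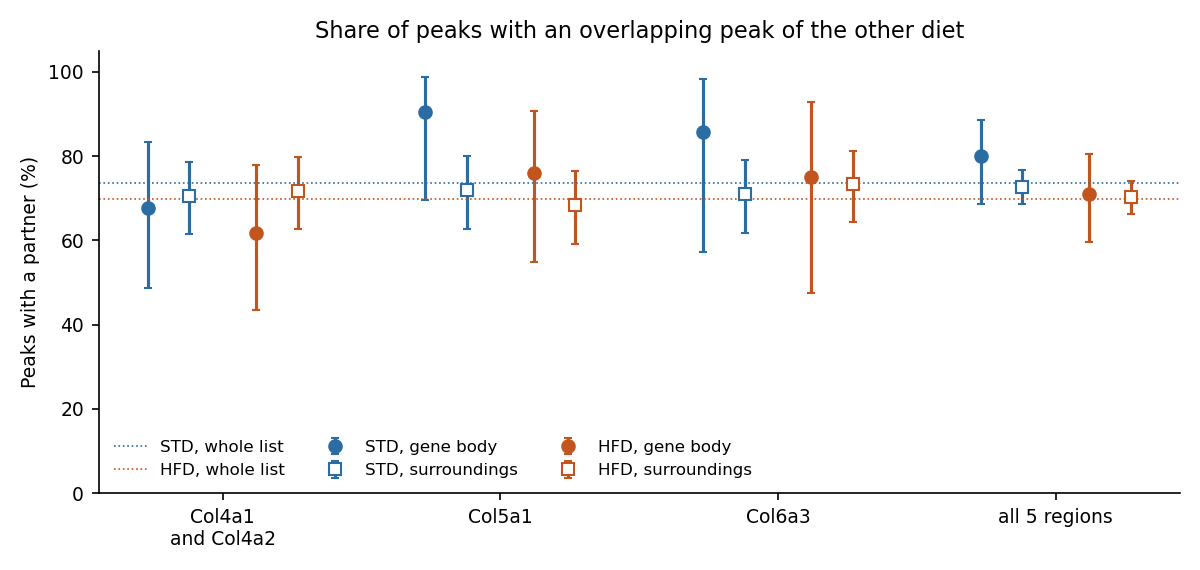
Percentage of peaks that overlap a peak of the other diet, in the gene body (filled circles) and surroundings (open squares), with exact 95% binomial intervals, STD in blue and HFD in orange; dotted lines give the whole lists. Col1a1 and Col3a1 enter only the pooled values, where the gene bodies reach 80.0% with STD and 70.9% with HFD and both intervals include the whole-list share.

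Gene-body peaks without a partner were narrow. Their median width was 284 bp with STD and 290 bp with HFD, against 330.5 and 329 bp for those with a partner. Of the 14 STD peaks, 4 had the minimum width of the list, 263 bp, and none exceeded it by more than 200 bp. Of the 23 HFD peaks, 2 exceeded the minimum of 255 bp by more than 200 bp, the peaks of 477 bp in Col5a1 and 504 bp in Col6a3. For 2 of the 14 STD peaks, and for 4 of the 23 HFD peaks, the other list had a peak at a distance of up to 500 bp. Since wide peaks have partners more often in both lists, the shares were also computed from peak widths. Given the whole-list share of each width class, 51.3 of the 70 STD and 55.1 of the 79 HFD gene-body peaks would have a partner, or 73.3% and 69.7%. The observed 80.0% and 70.9% lay above these values by less than the counting error.

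Among loci found with 1 diet only, HFD made up 23 of 37 in the gene bodies, or 62.2% (44.8 to 77.5). Over all nuclear chromosomes HFD made up 54.7% of peaks without a partner, within that interval. The number of gene-body peaks with HFD over STD was 1.13 (0.808 to 1.58). By region it was 1.10 for Col4a1 and Col4a2, 1.19 for Col5a1, 1.14 for Col6a3 and 1 for Col1a1 and Col3a1. Over all nuclear chromosomes that ratio was 1.06 (1.05 to 1.06), and the ratio in the surroundings was 1.04 (0.916 to 1.18). No excess of HFD peaks particular to the collagen genes was therefore detectable.

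Where both diets had a peak, its width varied in both directions. The 56 pairs had midpoints a median of 26 bp apart, and at most 166 bp, a closeness that the pairing by overlap largely fixes. Their median width was 330.5 bp with STD and 329 bp with HFD. HFD peaks were wider in 21 pairs and narrower in 34, with a median difference, HFD minus STD, of -10 bp (quartiles -58.3 and 57.8 bp). The minimum widths of the lists differ by 8 bp in the same direction. Median widths of the whole lists differ in that direction too, 332 bp with STD and 321 bp with HFD. How many pairs over the whole lists are narrower with HFD was not computed. In Col5a1 the HFD peak was narrower in 14 of 19 pairs (median -20 bp), in Col6a3 in 8 of 12 (median -18 bp), and in Col4a1 and Col4a2 in 9 of 21 (median 19 bp).

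**Figure D4:**
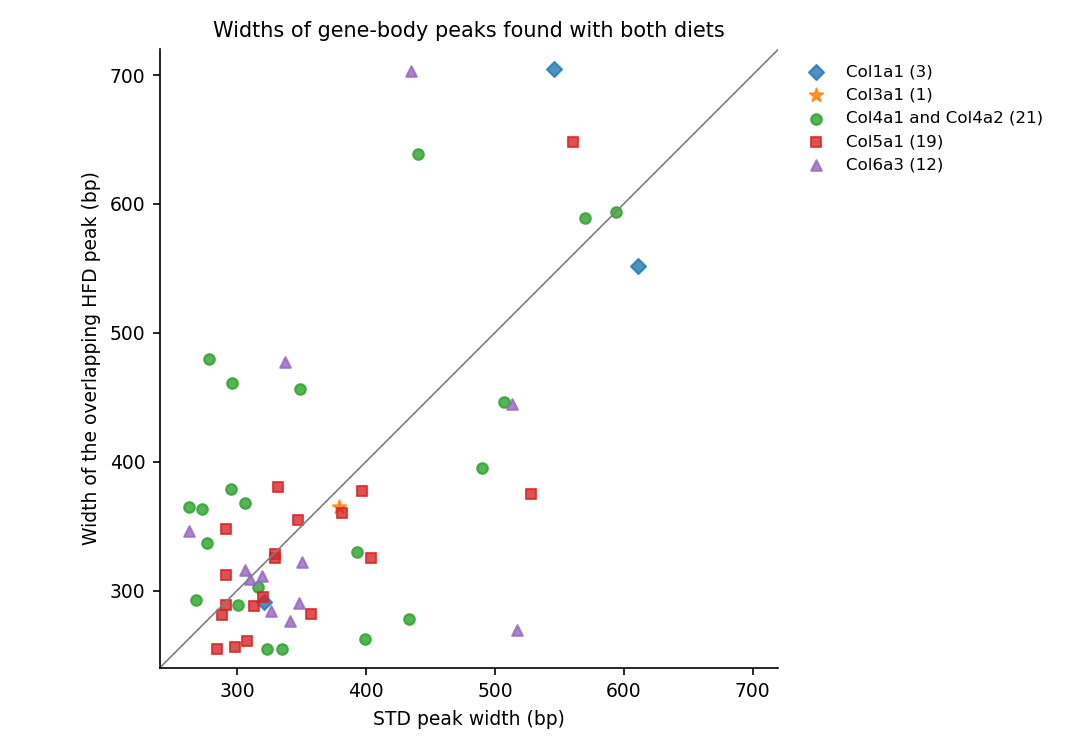
Width of each gene-body STD peak against the width of the overlapping HFD peak, in bp, for the 56 pairs, with 1 symbol per region, the number of pairs in parentheses and a grey line of equal width. Points lie on both sides of the line, 21 above and 34 below it, and the pairs farthest from it include 435 against 703 bp and 517 against 269 bp, both in Col6a3.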

How the data were processed

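Peak lists of 2 MeDIP-seq libraries, 1 per diet, were analysed. Per the submitters' processing notes, reads were handled with BWA on mm9. How peaks were called, and whether mice were pooled, is not given in the sources used here. As deposited, there is 1 list per library with 4 columns (chromosome, start, end, name), so presence, position and width are the only measurements. The 6 mitochondrial peaks of each list were left out of comparisons. Positions are printed counting from 1. The gene and promoter tables follow GRCm38.p6 and were used for gene names, neighbours and promoter letters, not to place peaks. Other collagen genes were not analysed here.

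Shares carry Clopper-Pearson intervals, densities Poisson intervals and ratios exact conditional binomial intervals. The numbers of window peaks, and of those with a partner, were checked with bedtools 2.31.1 and were identical, and the scripts were tested on simulated data. The software was Python 3.11.15 with scipy 1.17.1, pandas 2.3.3, numpy 2.4.6 and, for plots, matplotlib 3.10.9. The members, the lists and the rule for named peaks (every gene-body peak in Col1a1 and Col3a1, elsewhere the 3 widest per diet, the widest without a partner, and those nearest the 5′ end) were chosen with earlier results of these data known.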

Additional observations from a re-analysis of the deposited data

How the results depend on the processing

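Of 55 recomputed values, 53 stayed within the counting interval of the value reported, 33 of the 55 being planned and 22, which leave out single genes other than Col4a1 and Col4a2 or weight the surroundings by length, chosen after seeing the data. With both lists limited to widths of 300 bp or more, the STD share with a partner moved to 59.6% (44.3 to 73.6). The HFD share was then 60.9% (45.4 to 74.9). That limit also removes narrow partners, which can lower the share in any region. The whole-list shares at that limit were not computed, so these 2 values cannot be set against the whole-list shares given above. Without Col4a1 and Col4a2 the STD share moved to 89.7%, where its interval (75.8 to 97.1) no longer included the whole-list 73.5%. That region had the lowest STD share, so leaving it out had to raise the pooled share. Other overlap rules, whole windows and assignment by midpoint kept the STD share at 75.9% to 82.9%. The body over surroundings ratio stayed above 1 in every alternative, from 1.16 to 1.40 with STD and from 1.27 to 1.56 with HFD. The HFD interval included 1 without Col3a1 (0.988 to 1.62), with whole windows (0.996 to 1.60) and for peaks of at least 300 bp (0.969 to 1.85). The STD interval excluded 1 with surroundings of 250 kb on each side (1.03 to 1.79) and without Col1a1 (1.03 to 1.76). All these ratio intervals leave out the variation of peak counts between stretches of the genome. The HFD over STD number of peaks ranged from 0.979, for peaks of at least 300 bp, to 1.15. No paired analysis was possible because there is a single library for either diet; for the same reason none could be left out. Since depth is unknown, an absent peak does not show absent methylation, and gene ends are approximate.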

Other observations

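In the Col4a1 and Col4a2 body, the direction of the width difference changed along the region, a pattern picked out after its values were seen. The first 8 pairs from the low-coordinate end (11205927 to 11302710 on chromosome 8), the side on which Col4a1 lies, all had a wider HFD peak, by 19 to 199 bp. The next 4 pairs (11319060 to 11369144) all had a narrower HFD peak, with HFD minus STD differences of -137 to -63 bp. Of the remaining 9 pairs, 3 were wider and 5 narrower with HFD. With 1 library per diet this was not tested.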
